A study of Bos taurus with 9 samples.

Results

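The transcripts described here are those of 10 genes that make histone mRNA and form its 3′ end: *NPAT*, *CASP8AP2*, *SLBP*, *LSM10*, *LSM11*, *ZNF473*, *CPSF3*, *SYMPK*, *ERI1* and *UPF1*. They were chosen by gene symbol for their known roles, with earlier results of these data known. Each of the 10 was found once among the 21512 genes of the deposited table. They were measured in single bovine blastocysts on day 8 (D8), 5 wild type (WT) and 4 *TEAD4* knockout (KO), with 1 library per embryo. *TEAD4* encodes a transcription factor that binds DNA with the co-activators of the Hippo pathway. The question was whether the machinery that makes histone mRNA differed between the genotypes, and how each gene stood in relation to the summed histone transcripts of the same embryo. All embryos came from slaughterhouse oocytes matured *in vitro* and fertilised with semen of a single bull. Just before fertilisation the oocytes were injected with Cas9 mRNA, either alone, which gave the WT embryos, or together with a guide RNA to the fourth exon of *TEAD4*. Editing with this guide gives random insertions and deletions, and KO embryos are those in which every allele was frame-disrupting, so the 4 KO embryos need not carry the same alleles.

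Most histone genes are expressed in S phase, when new DNA must be packed into nucleosomes, and their mRNAs, unlike other mRNAs, end in a stem-loop rather than a poly(A) tail. NPAT, a substrate of cyclin E and CDK2, switches on the histone gene clusters, and CASP8AP2 (FLASH) joins it in the histone locus body and recruits the cleavage machinery. SLBP binds the stem-loop, and the U7 small nuclear ribonucleoprotein, with its specific subunits LSM10 and LSM11, pairs with a downstream element and brings in a cleavage complex that contains the endonuclease CPSF3 and the scaffold SYMPK. ERI1 trims the new end, and at the end of S phase UPF1 and ERI1 take part in the rapid decay of histone mRNA. A preimplantation embryo divides rapidly and depends on this supply.

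Values are given in TPM, a unit of transcript abundance in which the reads assigned to a gene are divided by its transcript length and scaled so that each library sums to 1000000. Levels of different genes may therefore be compared per transcript. The number of reads behind a TPM value is not kept, so the depth of each library is unknown from the table, and counting error cannot be given. Both library protocols described for these embryos started from poly(A) RNA. Histone mRNAs that end in the stem-loop lack this tail, so the histone values cover only the transcripts captured, and what share of the total they are is unknown. A blastocyst was sequenced whole, and fewer cells of a type and less RNA per cell cannot be told apart.

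The WT embryos are called WT_1 to WT_5 and the KO embryos TE_1 to TE_4, and values are listed in that order. *TEAD4* mRNA itself was at 18.0, 52.5, 54.3, 36.5 and 43.4 TPM in WT and 42.8, 41.8, 12.5 and 22.2 TPM in KO. The genotypes overlapped (log2 fold change −0.51, adjusted p = 0.947, limma), and since a frame-disrupting change need not remove the mRNA, this level does not check the labels. Of 8 trophectoderm markers 6 were above 1 TPM in every library, with summed levels of 4019 to 17927 TPM in WT and 6586 to 12382 TPM in KO. That sum was mostly *KRT8* and *KRT18*. Estimates were below 0 for 6 of the 8 (median −0.22) and above 0 for 2, among them *CDX2* (0.15, adjusted p = 0.985, limma). *TFAP2A* was at 8.28 ± 3.97 TPM in WT (SD, n = 5) and 2.83 ± 2.03 TPM in KO (SD, n = 4), with a log2 fold change of −1.34 (unadjusted p = 0.0206, adjusted p = 0.745, limma). Summed epiblast markers lay between 777 and 2045 TPM in WT and between 1358 and 2166 TPM in KO, and summed hypoblast markers between 116 and 327 TPM and between 105 and 230 TPM. The epiblast sum was largely *POU5F1*. The paper states that the mouse pattern, in which POU5F1 and CDX2 exclude each other, does not hold in bovine, so this sum does not mark epiblast alone. The means of *NANOG* were 87.0 TPM in WT and 21.5 TPM in KO and those of *SOX2* 41.9 and 24.0 TPM. *NANOG* ran from 0.127 to 262 TPM within WT (log2 fold change −1.43 ± 1.34, SE, adjusted p = 0.962, limma). *POU5F1* went the other way, at 1176 ± 373 TPM in WT (SD, n = 5) and 1709 ± 377 TPM in KO (SD, n = 4). Its log2 fold change was 0.57 (unadjusted p = 0.0509, adjusted p = 0.836, limma). The median log2 fold change of the 3 epiblast markers tested was −0.68. Of 6 hypoblast markers 5 had estimates below 0 (median −0.57), and that of *FN1* was above 0 (0.27, adjusted p = 0.982, limma). *GATA4*, at 1.46 ± 0.284 TPM in WT (SD, n = 5) and 0.640 ± 0.243 TPM in KO (SD, n = 4), was lower in each KO embryo than in any WT embryo (adjusted p = 0.684, limma). No marker was called, and the part of cell composition in the values below was not tested. Of 8 markers of cumulus and granulosa cells 4 were under 1 TPM in every library, and the sum of the 8, 2.82 to 27.9 TPM, was mostly *FSHR*. The smallest p-values of these in each direction belonged to *AMH* (0.52, adjusted p = 0.891, limma) and *TNFAIP6* (−0.70, adjusted p = 0.836, limma), both low. Between 14776 and 16678 genes were above 0 per library, and median-of-ratios size factors computed from the TPM were 0.759 in TE_1, 1.24 in TE_2 and between 0.945 and 1.10 in the other embryos. TE_1 and TE_2 thus stood apart in scale, in opposite directions, and the estimates without each of them are given after the single genes.

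None of the 10 genes was called changed in *TEAD4* KO blastocysts. They were tested with limma on log2(TPM + 1) among the 14599 genes with a median above 0.1 TPM, a filter that all 10 passed, and a gene was called if its Benjamini-Hochberg adjusted p-value was under 0.05 with a log2 fold change beyond 1 in either direction. The count was 0 of 10 in this fit and under each of 16 alternative settings, against 3 genes or 0.0205% of all genes tested. The paper's own test, DESeq2 on counts with similar thresholds, called many more genes in this comparison. With so few genes called here in all, a count of 0 of 10 says little about these genes. At an unadjusted p-value under 0.05 the count was 1 of 10, *LSM11*, against 5.90% of all genes. No gene had KO values that all lay above or all lay below the WT values, which 2.03% of genes had. Estimates were above 0 for 4 genes and below 0 for 6, with a median of −0.17 against −0.046 over all genes. The scatter of the KO embryos is described after the single genes.

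**Figure D1:**
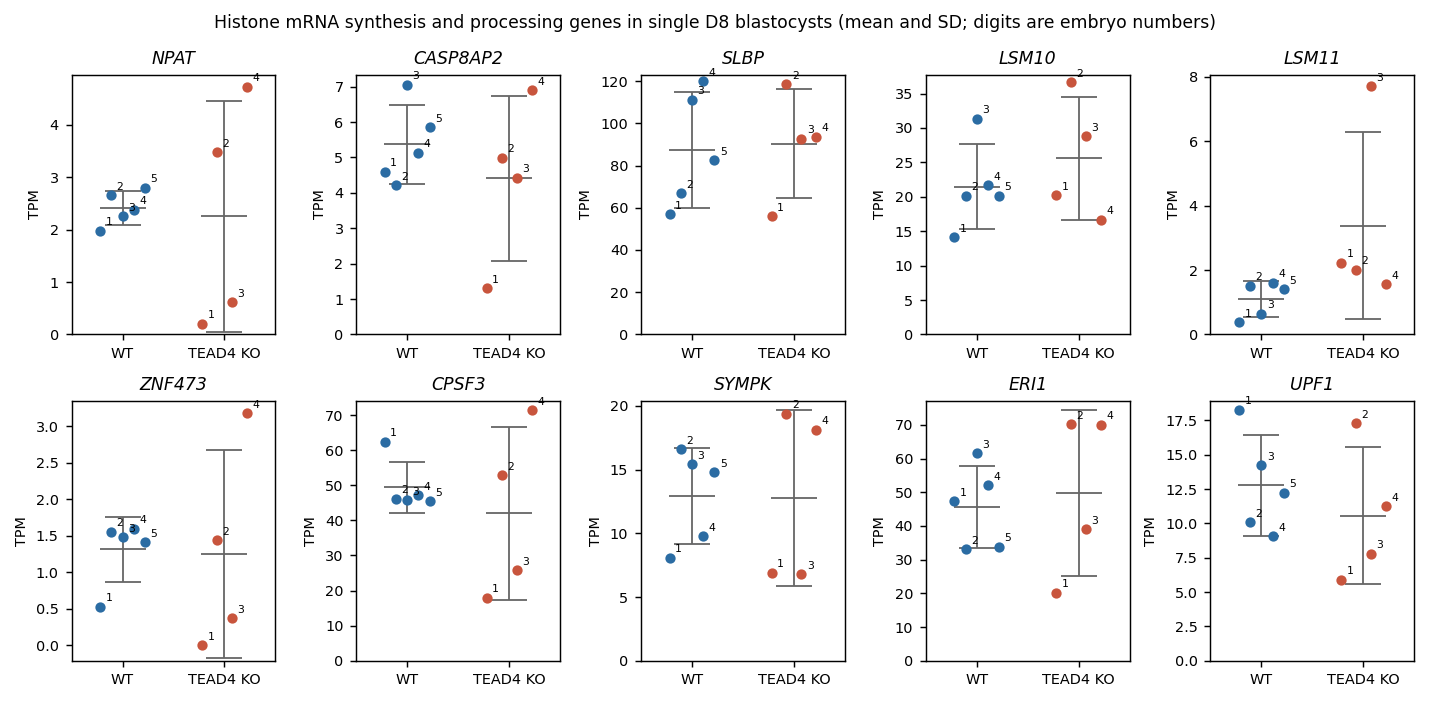
TPM of the 10 genes, 1 panel per gene on its own linear axis, with 1 point per blastocyst (5 WT, 4 KO), the mean as a horizontal bar and the SD as an error bar. The KO points of *NPAT*, *CPSF3* and *ERI1* are spread more widely than the WT points, while *SLBP* spans similar ranges in both genotypes.

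Both genes that act in transcription at the histone locus were expressed at a few TPM. *NPAT* was listed at 1.98, 2.65, 2.26, 2.38 and 2.80 TPM in WT and at 0.204, 3.47, 0.610 and 4.72 TPM in KO. The WT embryos were close together and the KO embryos lay outside them on either side, TE_1 and TE_3 below every WT embryo and TE_2 and TE_4 above every WT embryo. The highest KO value was 23.1 times the lowest, against 1.41 times in WT. The means were nearly equal at 2.41 ± 0.323 TPM (SD, n = 5) and 2.25 ± 2.20 TPM (SD, n = 4), and the log2 fold change was −0.36 ± 0.44 (SE, 95% interval −1.31 to 0.59, adjusted p = 0.977, limma).

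*CASP8AP2*, which links transcription at the locus to cleavage of the transcript, was listed at 4.59, 4.22, 7.05, 5.14 and 5.86 TPM in WT and at 1.30, 4.99, 4.43 and 6.91 TPM in KO. Only TE_1 lay outside the WT range, below it. The means were 5.37 ± 1.12 TPM (SD, n = 5) and 4.41 ± 2.33 TPM (SD, n = 4), with a log2 fold change of −0.35 ± 0.38 (SE, 95% interval −1.18 to 0.47, adjusted p = 0.971, limma). Without TE_1 the estimates of both genes were close to 0, at 0.022 for *NPAT* and 0.015 for *CASP8AP2*. With a pseudocount of 0.1 TPM in place of 1 TPM, the log2 fold change of *NPAT* was −0.85.

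*SLBP*, the protein that stays with histone mRNA from the nucleus to the ribosome, was the most abundant of the 10 in both genotypes. Its TPM was 56.9, 66.9, 111, 120 and 82.4 in WT and 56.0, 119, 92.8 and 93.6 in KO. The ranges overlapped almost completely, with TE_1 just below the lowest WT embryo. The means were 87.4 ± 27.4 TPM (SD, n = 5) and 90.2 ± 25.8 TPM (SD, n = 4), and the log2 fold change was 0.052 ± 0.29 (SE, 95% interval −0.59 to 0.69, adjusted p = 0.994, limma).

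The U7 particle carries a ring of Sm proteins in which LSM10 and LSM11 take the places of SNRPD1 and SNRPD2. *LSM10* was listed at 14.1, 20.2, 31.4, 21.7 and 20.1 TPM in WT and at 20.3, 36.6, 28.8 and 16.7 TPM in KO. Only TE_2 was above the WT range. Its log2 fold change was 0.22 ± 0.31 (SE, 95% interval −0.45 to 0.89, adjusted p = 0.982, limma).

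*LSM11*, whose N-terminal part meets CASP8AP2 to recruit the cleavage complex, had the largest estimate of the 10. It was listed at 0.376, 1.51, 0.644, 1.60 and 1.40 TPM in WT and at 2.23, 2.01, 7.71 and 1.56 TPM in KO. TE_1, TE_2 and TE_3 lay above every WT embryo, and TE_4 lay just under WT_4. The means were 1.11 ± 0.559 TPM (SD, n = 5) and 3.38 ± 2.90 TPM (SD, n = 4). The log2 fold change of 0.91 ± 0.38 (SE, 95% interval 0.084 to 1.74) had an unadjusted p = 0.0335 and an adjusted p = 0.797 in limma, and did not pass. An exact two-sided permutation test over the 126 splits of the embryos into 5 and 4 gave p = 0.0317, where the smallest p the design allows is 0.0159. TE_3 decided much of its size, since the estimate was 0.52 without that embryo and 1.10 without TE_4, and it was 1.39 with a pseudocount of 0.1 TPM. Without TE_3, WT_1 or WT_3 the unadjusted p-value of *LSM11* was no longer under 0.05, and the adjusted p-value ranged from 0.556 to 0.999 over all alternatives.

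The ratio of *LSM10* to *LSM11*, 2 proteins that sit side by side in the ring, was looked at after these values were seen and is given without a test. It was 37.6, 13.3, 48.7, 13.5 and 14.3 in WT and 9.10, 18.2, 3.73 and 10.7 in KO. The mRNA of *LSM10* was thus the more abundant in every embryo, by the least in TE_3, and in 3 of 4 KO embryos the ratio was below that of every WT embryo.

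*ZNF473* (ZFP100), a zinc finger protein that binds LSM11 and the SLBP-bound stem-loop, was low throughout. It was listed at 0.526, 1.55, 1.48, 1.59 and 1.41 TPM in WT, and at 0 in TE_1, 1.43 in TE_2, 0.370 in TE_3 and 3.18 in TE_4. TE_1 and TE_3 were below the WT range and TE_4 was above it, as for *NPAT*. The log2 fold change was −0.23 ± 0.38 (SE, 95% interval −1.06 to 0.59, adjusted p = 0.982, limma), on the log2(TPM + 1) scale, which understates differences of genes as low as this one. With a pseudocount of 0.1 TPM it was −0.93.

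Both components of the cleavage complex measured here also serve the polyadenylation of other mRNAs, and were more abundant than *ZNF473*. *CPSF3*, the endonuclease that cuts the transcript, was listed at 62.4, 46.1, 45.8, 47.1 and 45.4 TPM in WT and at 17.9, 52.8, 25.7 and 71.3 TPM in KO. In WT 4 of 5 embryos were within 2 TPM of each other and WT_1 stood above them, whereas TE_1 and TE_3 were below and TE_4 above the whole WT range. The log2 fold change was −0.42 ± 0.36 (SE, 95% interval −1.21 to 0.38, adjusted p = 0.955, limma).

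*SYMPK*, the scaffold of the complex, was listed at 8.09, 16.6, 15.4, 9.77 and 14.8 TPM in WT and at 6.90, 19.4, 6.80 and 18.1 TPM in KO. TE_1 and TE_3 lay under the lowest WT embryo and TE_2 and TE_4 over the highest, so that no KO embryo was within the WT range. The means nonetheless were 12.9 ± 3.76 TPM (SD, n = 5) and 12.8 ± 6.90 TPM (SD, n = 4), with a log2 fold change of −0.12 ± 0.39 (SE, 95% interval −0.96 to 0.73, adjusted p = 0.992, limma).

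*ERI1*, the 3′ exonuclease that trims the stem-loop end, was listed at 47.4, 33.1, 61.6, 52.0 and 33.9 TPM in WT and at 20.2, 70.1, 39.1 and 70.0 TPM in KO. TE_2 and TE_4 were above all WT embryos and TE_1 was below them. The log2 fold change was 0.0062 ± 0.37 (SE, 95% interval −0.80 to 0.81, adjusted p = 0.998, limma), the smallest estimate of the 10.

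*UPF1*, the helicase of nonsense-mediated decay that is also recruited to histone mRNA, was listed at 18.3, 10.1, 14.2, 9.05 and 12.2 TPM in WT and at 5.90, 17.3, 7.80 and 11.2 TPM in KO. TE_1 and TE_3 were below every WT embryo and the other KO embryos were within the WT range. The log2 fold change was −0.31 ± 0.35 (SE, 95% interval −1.07 to 0.44, adjusted p = 0.971, limma).

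**Figure D2:**
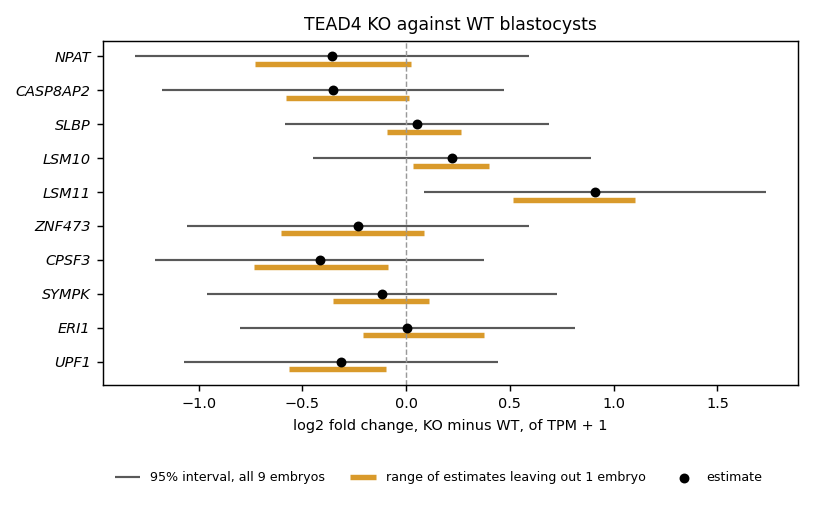
Log2 fold change on the log2(TPM + 1) scale, KO minus WT, for the 10 genes, with the estimate as a point, its 95% interval as a thin line and the range of estimates obtained by leaving out 1 embryo at a time as a thick line. Intervals of 9 genes include 0, and that of *LSM11* runs from 0.084 to 1.74.

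The intervals set what these 9 embryos could show. For *SLBP*, the most tightly estimated, a difference in either direction of more than 0.69 on the log2 scale lay outside the 95% interval, while for *NPAT* the interval reached −1.31. An *NPAT* value in KO more than 1 unit below that of WT on the log2(TPM + 1) scale lay inside its interval. For a gene this low that scale understates the difference in level. Equal levels were not shown for any of the 10.

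Leaving out TE_1 or TE_2 moved most estimates, in opposite directions. Without TE_1 the log2 fold change was −0.088 for *CPSF3*, −0.097 for *UPF1*, 0.084 for *ZNF473*, 0.10 for *SYMPK*, 0.26 for *SLBP*, 0.31 for *LSM10* and 0.37 for *ERI1*. Without TE_2 it was −0.61 for *NPAT*, −0.59 for *CPSF3*, −0.57 for *UPF1*, −0.45 for *CASP8AP2*, −0.35 for *SYMPK*, −0.34 for *ZNF473*, −0.21 for *ERI1*, −0.094 for *SLBP* and 0.035 for *LSM10*. *LSM11* was at 0.99 without TE_1 and 1.03 without TE_2. No gene of the 10 was called without either embryo.

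The KO embryos were more scattered than the WT embryos for most of these genes, a comparison that was not planned and was added after the values were seen. The SD of log2(TPM + 1) was larger in KO for 9 of 10, all but *SLBP*, against 70.1% of all genes tested. It was 1.10 in KO and 0.138 in WT for *NPAT*, 0.891 and 0.192 for *CPSF3*, and 0.913 and 0.323 for *ZNF473*. For *ERI1* the SDs were 0.831 and 0.384, for *CASP8AP2* 0.769 and 0.247, and for *SLBP* 0.450 and 0.456. The count of 9 was also found after scaling by size factors, and was 8 to 10 when 1 embryo was left out. A larger spread in KO was not particular to these 10 genes. Among the related lists described below, 9 of 10 other transcription regulators and 16 of 17 cleavage and polyadenylation genes had it. So did 10 of 10 genes of cap binding, export and translation and 18 of 20 S phase genes. The counts were 6 of 8 for Sm proteins, 13 of 18 for decay and 3 of 8 for replacement histones. With 5 and 4 embryos a difference between SDs of single genes was not tested. Of the 40 KO values of these genes 25 lay outside the range of the 5 WT embryos, 12 above and 13 below, or 62.5% against 46.3% over all genes tested. That share was 53.3% without TE_1, 66.7% without TE_2 and 55.0% without both, against 45.3%, 46.5% and 45.1% of all genes. After scaling by size factors it was 60.0%, against 44.6% of all genes.

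The same embryos stood outside the WT range for many of these genes. TE_1 was below every WT embryo for 8 of 10 genes and above every WT embryo for *LSM11*, and TE_3 was below for 5. TE_2 and TE_4 were each above every WT embryo for 5 genes and below for none. TE_1 was also the KO embryo with the lowest size factor, 0.759, and 38.5% of all genes tested were below every WT embryo in it. In TE_3 this share was 25.7%. TE_2 had the highest size factor, 1.24, and 32.9% of all genes tested were above every WT embryo in it. TE_3 and TE_4 had size factors of 0.945 and 1.03, and in TE_4 the shares of all genes above and below the WT embryos were similar, at 23.4% and 22.1%. The part of library scale in the scatter was not tested beyond the rescaled count and share given above.

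Histone transcripts separated the genotypes completely, unlike any of the 10 genes. The summed TPM of the 60 symbols that start with H1-, H2AC, H2BC, H3C or H4C was 348, 407, 318, 507 and 480 in WT and 1467, 4749, 1342 and 3520 in KO. The lowest KO embryo was well above the highest WT embryo, and the ratio of the means was 6.72 (412 ± 81.6 TPM, SD, n = 5, against 2770 ± 1655 TPM, SD, n = 4; log2 difference 2.56, exact two-sided permutation p = 0.0159, the smallest the design allows). The paper had already reported histone genes, *H2AC18* among them, as upregulated in the KO blastocysts of this series. The tests of histone sums given here are therefore not independent support for a difference. TE_2 and TE_4 were high among the KO embryos and TE_1 and TE_3 were low. The captured histone transcripts made up 0.0318 to 0.0507% of the library in WT and 0.134 to 0.475% in KO.

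A single gene gave much of that sum. *H2AC18*, an H2A gene, averaged 49.8% of it over the 9 embryos (36.7 to 66.3%), with 188 ± 50.2 TPM in WT (SD, n = 5) and 1407 ± 634 TPM in KO (SD, n = 4; log2 fold change 2.82 ± 0.32, SE, adjusted p = 0.0226, limma), and the log2 difference of the sum without it was 2.27. *H2BC15*, an H2B gene, averaged 12.0% and *H1-10*, a replication-independent linker histone, 6.39%. *H1-10* was at 41.5 ± 22.2 TPM in WT (SD, n = 5) and 41.2 ± 22.9 TPM in KO (SD, n = 4), with a log2 fold change of 0.028 ± 0.52 (SE, adjusted p = 0.997, limma). The log2 difference of the sum without the H1- symbols was 2.69. Copies of histone genes are nearly identical, and reads could have been split among them, so values of single histone genes are uncertain.

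The subclasses differed in size. Summed H2A transcripts were 246 ± 61.0 TPM in WT (SD, n = 5) and 1642 ± 747 TPM in KO (SD, n = 4), and summed H2B transcripts 94.4 ± 53.4 and 758 ± 568 TPM. Summed H4 transcripts averaged 18.4 ± 4.30 TPM in WT (SD, n = 5) and 139 ± 181 TPM in KO (SD, n = 4). Summed H3 transcripts averaged 5.04 ± 2.19 and 145 ± 254 TPM, where 526 TPM in TE_2 made most of the KO mean. For each of these 4 sums the genotypes did not overlap, with KO the higher (exact permutation p = 0.0159), whereas the linker histone sum overlapped at 47.9 ± 22.2 and 85.6 ± 39.2 TPM (exact permutation p = 0.111). H2A and H2B, which stand in equal number to H3 and H4 in the nucleosome, were thus captured at much higher levels than H3 and H4 in these libraries.

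Set against *SLBP*, whose protein binds each stem-loop mRNA, the histone transcripts were also higher in KO. The ratio of summed histone TPM to *SLBP* TPM, each with 1 TPM added, was 6.04, 6.01, 2.85, 4.20 and 5.77 in WT and 25.8, 39.7, 14.3 and 37.2 in KO. No KO embryo came near the WT values. The log2 difference was 2.51 (exact two-sided permutation p = 0.0159), close to the 2.56 of the histone sum itself. As *SLBP* had a log2 fold change of 0.052, the ratio repeats the histone sum and is not a separate result. The transcripts captured need not be those that end in the stem-loop.

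**Figure D3:**
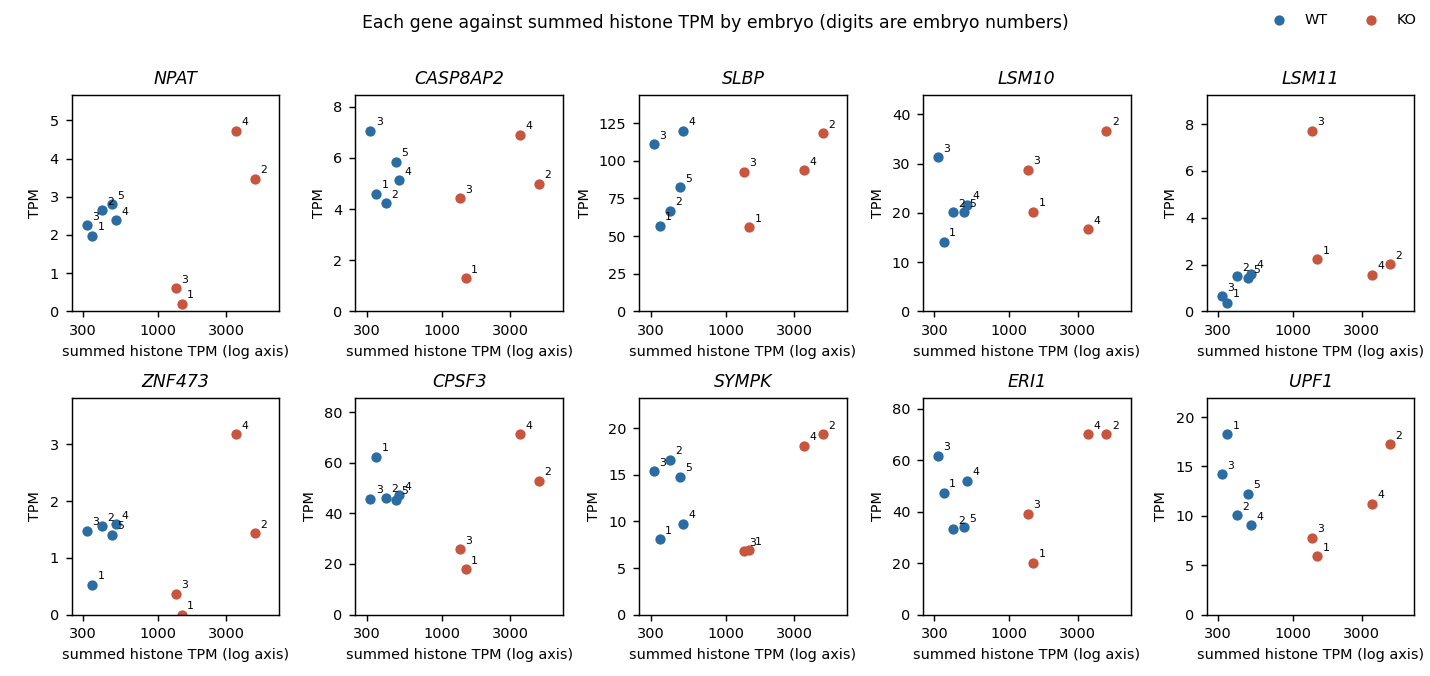
TPM of each of the 10 genes (linear vertical axis) against summed histone TPM (horizontal log axis), 1 point per blastocyst with its number, WT in blue and KO in red. The KO points lie to the right of the WT points in every panel, and TE_2 and TE_4, with the highest histone sums, are above TE_1 and TE_3 for *NPAT*, *ZNF473*, *CPSF3*, *SYMPK*, *ERI1*, *UPF1*, *CASP8AP2* and *SLBP*.

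Within a genotype, most fitted slopes of these mRNAs on the histone sum were above 0, but no relation passed the adjusted threshold. Because the histone sum separated the genotypes and neither had 6 embryos, no correlation was computed. Instead limma was fitted over all 14599 genes with genotype and the log2 histone sum as terms, and the slope is the difference in log2(TPM + 1) for each doubling of the histone sum between embryos of the same genotype. No gene of the 10 had an adjusted p-value under 0.05 for this term, against 0.0411% (6 genes) of all genes. The slope was positive at an unadjusted p-value under 0.05 for 4 of 10, *NPAT*, *ZNF473*, *CPSF3* and *SYMPK*, against 13.0% of all genes. It was above 0 for 9 of 10, all but *LSM11*, against 65.0% of all genes, with a median of 0.53 against 0.14. In the related lists described below, slopes were above 0 for 8 of 10 other transcription regulators (4 at an unadjusted p-value under 0.05, limma). The counts were 15 of 17 (3) for cleavage and polyadenylation and 8 of 10 (2) for cap binding, export and translation. They were 11 of 18 (3) for decay, 6 of 8 (2) for replacement histones and 2 of 8 (0) for Sm proteins. Of the 10 pairs of WT embryos, a median of 5 had the gene and the histone sum in the same order over the 10 genes, as over all genes, from 2 for *UPF1* to 8 for *LSM11*. Of the 6 pairs of KO embryos the median was 4, again as over all genes, from 1 for *LSM11* to 6 for *SYMPK*. The histone sum spanned 1.59-fold in WT and 3.54-fold in KO, so that the KO embryos carried most of the weight in the slopes.

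The slope of *NPAT*, the activator of the histone clusters, had the largest t statistic of the 10. It was 1.02 ± 0.25 (SE, 95% interval 0.47 to 1.57, unadjusted p = 0.00199, adjusted p = 0.180, limma), and 1.72 with a pseudocount of 0.1 TPM, so the size of the slope depends on the pseudocount for a gene this low. In KO *NPAT* spanned 23.1-fold while the histone sum spanned 3.54-fold. In KO the embryos with the lower histone sums, TE_1 and TE_3, had *NPAT* at 0.204 and 0.610 TPM, and those with the higher sums, TE_4 and TE_2, had it at 4.72 and 3.47 TPM. Between genotypes the values did not run together, since WT embryos with histone sums of 318 to 507 TPM had more *NPAT* than TE_1 and TE_3. Its slope stayed between 0.83 and 1.24 when 1 embryo was left out, and its adjusted p-value ranged from 0.0547 to 0.389 over all alternatives.

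The other slopes past the unadjusted threshold belonged to 3 genes of the U7 particle and the cleavage complex. *ZNF473* had a slope of 0.78 ± 0.25 (SE, 95% interval 0.22 to 1.34, adjusted p = 0.210, limma), and 1.82 with a pseudocount of 0.1 TPM. *CPSF3* had a slope of 0.73 ± 0.24 (SE, 95% interval 0.20 to 1.27, adjusted p = 0.210, limma). *SYMPK* had a slope of 0.73 ± 0.27 (SE, 95% interval 0.14 to 1.32, adjusted p = 0.237, limma). For all 3, TE_2 and TE_4 were above TE_1 and TE_3.

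The remaining slopes were not distinguishable from 0. *ERI1* came nearest, at 0.61 ± 0.28 (SE, 95% interval −0.0071 to 1.23). *CASP8AP2* and *UPF1* both had slopes of 0.44, with SE of 0.31 and 0.28, and *SLBP* had 0.35 ± 0.24 (SE, adjusted p = 0.478, limma). *LSM10* had a slope of 0.064 ± 0.27 (SE), which turned negative after scaling by size factors (−0.23). *LSM11* had the only negative slope, −0.38 ± 0.33 (SE, adjusted p = 0.581, limma), and it was 0.13 without TE_3.

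**Figure D4:**
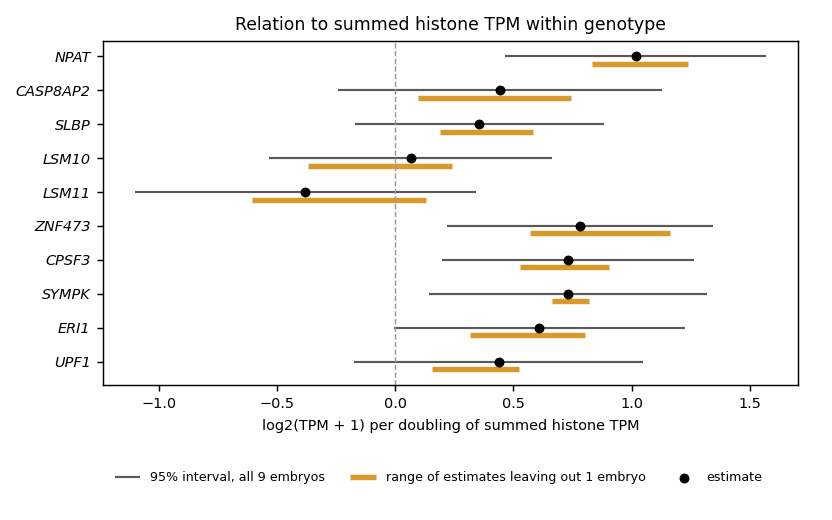
Slope of log2(TPM + 1) per doubling of summed histone TPM within genotype for the 10 genes, with the estimate as a point, its 95% interval as a thin line and the range of estimates obtained by leaving out 1 embryo at a time as a thick line. Intervals of *NPAT*, *ZNF473*, *CPSF3* and *SYMPK* lie above 0, and the leave-out ranges of *LSM10* and *LSM11* cross 0.

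Library scale moved with this relation. In KO the size factors were in nearly the order of the histone sums, from 0.759 in TE_1 and 0.945 in TE_3 to 1.03 in TE_4 and 1.24 in TE_2, and scaling by them brought the median slope of all genes from 0.14 to −0.0080 and the share of positive slopes from 65.0% to 49.2%. After that scaling 8 of 10 slopes were still above 0, and *NPAT* (1.04) and *ZNF473* (0.84) passed the unadjusted threshold, against 5.13% of all genes. Leaving out TE_1 left only *NPAT* past it, against 7.98% of all genes, and leaving out TE_2 left *NPAT*, *ZNF473* and *CPSF3*, against 6.96%. The slopes of *NPAT* and *ZNF473* were therefore as large after rescaling but less precise. Their SE was then 0.33 for both, with adjusted p = 0.366 and 0.406 (limma). Those of *CPSF3* (0.59) and *SYMPK* (0.64) were smaller. The histone sum was rescaled as well, so slopes of equal size need not mean equally strong relations.

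Other genes of the pathway were examined by the same test. None of 10 other regulators of histone gene transcription was called, with a median log2 fold change of −0.0082, and none had an unadjusted p-value under 0.05. *CCNE2*, a cyclin E that drives the phosphorylation of NPAT, was at 13.9 ± 2.63 TPM in WT (SD, n = 5) and at 2.75, 18.7, 4.52 and 18.7 TPM in KO, so that TE_1 and TE_3 were again the low KO embryos (log2 fold change −0.64, adjusted p = 0.937, limma). *POU2F1* (OCT-1), which acts at the H2B promoter, had a log2 fold change of 0.34 (adjusted p = 0.956, limma). The histone slopes of these genes were 1.09 ± 0.30 (SE) for *CCNE2* and 0.31 ± 0.24 (SE) for *POU2F1*.

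Of 17 other genes of cleavage and polyadenylation none was called, with a median of −0.0071. The lowest p-values in each direction belonged to *PCF11*, a transcription termination factor (−0.55, adjusted p = 0.891, limma), and *WDR33*, which reads the polyadenylation signal (0.30, adjusted p = 0.971, limma). Of 8 genes of spliceosomal Sm proteins, only some of which also sit in the U7 ring, none was called, with a median of 0.15. *SNRPD3*, a subunit shared by the U7 and spliceosomal rings, was at 1212 ± 210 TPM in WT (SD, n = 5) and 1716 ± 345 TPM in KO (SD, n = 4; log2 fold change 0.49, unadjusted p = 0.0411, adjusted p = 0.823, limma). *SNRPN* had a log2 fold change of −0.33 (adjusted p = 0.917, limma).

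None of 10 genes for cap binding, export and translation of histone mRNA was called (median 0.057). *MIF4GD*, which joins SLBP to the translation machinery, had −0.60 (adjusted p = 0.897, limma) and *NCBP2*, a subunit of the nuclear cap-binding complex, 0.48 (adjusted p = 0.929, limma). Their histone slopes were 0.25 ± 0.30 (SE) for *MIF4GD* and 0.87 ± 0.16 (SE) for *NCBP2*. None of 18 genes of histone mRNA decay was called either (median 0.063), although 1 gene in each direction had an unadjusted p-value under 0.05. These were *LSM7*, of the LSM ring that binds the oligouridylated tail (0.60, unadjusted p = 0.0392, adjusted p = 0.818, limma), and *PNRC2*, which works with UPF1 in decapping (−0.72, unadjusted p = 0.0252, adjusted p = 0.765, limma). *PNRC2* was at 87.1 ± 15.7 TPM in WT (SD, n = 5) and 55.0 ± 19.8 TPM in KO (SD, n = 4), with TE_2 inside the WT range and the other KO embryos below it.

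Genes of S phase and replacement histones were measured beside them. Of 20 S phase genes 0 were called and 0 had an unadjusted p-value under 0.05 for genotype, with a median of −0.053. *LIG1*, the replicative DNA ligase, had 0.31 (adjusted p = 0.962, limma) and *E2F8*, a repressor of E2F targets, −0.38 (adjusted p = 0.891, limma). The histone slope of S phase genes was above 0 for 19 of 20, and positive at an unadjusted p-value under 0.05 for 14 of 20, a larger share than the 4 of 10 above. That count was 8 of 20 after scaling by size factors, 10 without TE_1 and 5 without TE_3. The part of S phase in the slopes of *NPAT* and the other genes was not tested. Of 10 replacement histone genes, whose mRNAs are polyadenylated, 8 were tested, *H1-10* among them, and none was called (median 0.0029). *H3-3A* and *H3-3B*, which encode H3.3, had −0.19 and 0.21.

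**Figure D5:**
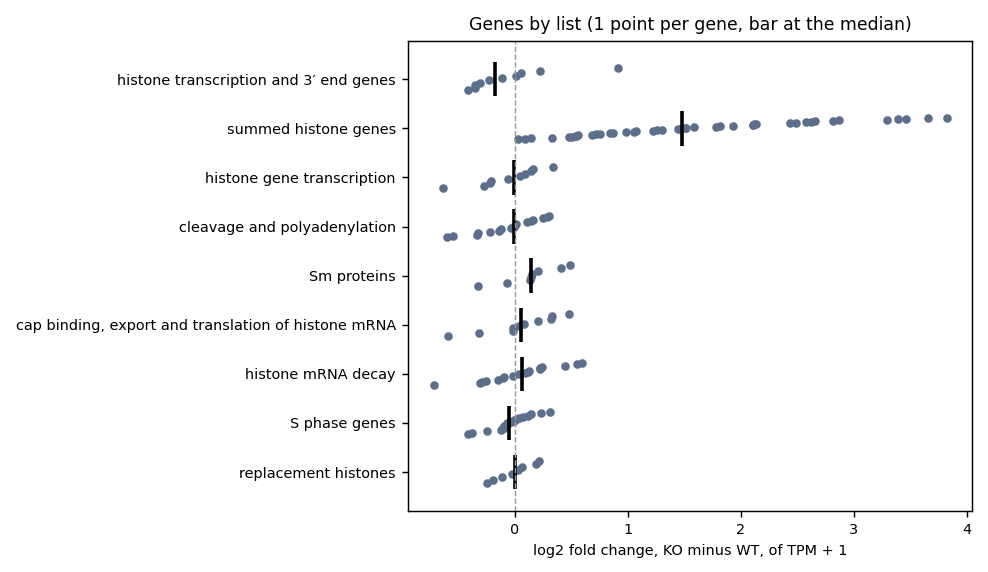
Log2 fold change on the log2(TPM + 1) scale, KO minus WT, of every tested gene of each list (1 point per gene) with the median as a bar, for the 10 genes, the other lists of the pathway and the summed histone genes. All lists but the summed histone genes are centred near 0. Of the 60 histone symbols 44 passed the filter and were tested. All 44 are above 0 with a median of 1.48, against 6449 above 0 of all 14599 genes tested. As near-identical copies could share reads, the 44 are not independent.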

How the data were processed

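Single D8 bovine blastocysts (5 WT, 4 *TEAD4* KO) were sequenced individually. The authors deposited TPM per gene, and the submitters' processing notes name FastQC, fastp and kallisto. Their versions, the annotation used and the way transcripts became gene values are not given in the sources used here, and the protocols in the labels and the paper differ in kit and sequencer. Columns were assigned to genotypes by name. Within a genotype, columns could not be matched to single samples. The study tested counts. As the deposited values are TPM, limma 3.58.1 (R 4.3.3, lmFit and eBayes with trend) was fitted here to log2(TPM + 1) of 14599 genes with a median above 0.1 TPM, and tested on simulated data. Single sums were compared by exact permutation. Python 3.11.15, numpy 2.4.6, pandas 2.3.3, scipy 1.17.1 and matplotlib 3.10.9 were used. The 10 genes and all lists were chosen with earlier results of these data known. Named beside them were *TEAD4*, the 3 histone genes with the largest share of the sum, and the gene of each list with the smallest p-value in each direction. Marker lists were summarised as sums, and *SOX2*, *KRT8*, *KRT18* and *FSHR* were named after their values were seen. Settings varied were the pseudocount (0.1 TPM), the filter (none, or a median above 1 TPM), size factors, quantile normalization, no trend, array weights, other histone sums and leaving out each embryo. No coordinates or sequences are given, since no build is named for the table.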

Additional observations from a re-analysis of the deposited data

Results flagged for a closer look

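In groups of 4 or 5 embryos, a value was singled out where its gap to the nearest other embryo was most of the range of its group (Dixon's criterion), and 4 of 32 groups of values had such an embryo, where chance gives about 5%. *LSM11* in TE_3 was at 7.71 TPM, with 0.892 of the KO range between it and the next embryo. *ZNF473* in WT_1 was at 0.526 TPM, below the other WT embryos by 0.827 of their range. *CPSF3* in WT_1 was at 62.4 TPM, above the other WT embryos by 0.903 of the range. *H2BC15* in TE_4 was at 725 TPM, above the other KO embryos by 0.865 of the range.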

How the results depend on the processing

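No gene of the 10 was called for genotype or for the histone term under any of the 16 alternatives, over which the number of genes called among all tested ranged from 0 to 10 for genotype (3 as reported, 10 without TE_3) and from 0 to 113 for the histone term (6 as reported, 113 with array weights). Of 160 alternative log2 fold changes 148 kept their direction and 12 reversed, each when 1 embryo was left out: *NPAT* ranged from −0.73 to 0.022, *CASP8AP2* from −0.58 to 0.015, *SLBP* from −0.094 to 0.26, *ZNF473* from −0.60 to 0.084, *SYMPK* from −0.35 to 0.11 and *ERI1* from −0.21 to 0.37. Of 160 slopes 155 kept their direction. That of *LSM10* reversed to −0.23 with size factors and −0.19 with quantile normalization and ranged from −0.37 to 0.24 when 1 embryo was left out, and that of *LSM11* from −0.61 to 0.13. The count of genes without overlap was 0 to 1 when 1 embryo was left out (*LSM11*, without TE_4 or WT_4). The cause was not tested. A pseudocount of 0.1 TPM moved low genes by over 1.5 times, with log2 fold changes of −0.85 for *NPAT*, −0.93 for *ZNF473* and 1.39 for *LSM11* and slopes of 1.72 for *NPAT* and 1.82 for *ZNF473*. Size factors lowered the slopes of *CASP8AP2*, *SLBP*, *ERI1* and *UPF1* to 0.22, 0.14, 0.34 and 0.17 and that of *LSM11* to −0.59. The log2 difference of the histone sum was 2.23 to 2.84 when 1 embryo was left out. Spread counts, pair orders and shares outside the WT range were added after the data were seen, with all embryos as well as with size factors or without an embryo. No paired analysis was possible because each embryo is a separate blastocyst and the sample labels share no replicate numbers between genotypes.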
